A study of Mus musculus with 2 samples.

Results

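The mitochondrial ribosomal proteins are the nuclear-encoded proteins of the mitoribosome. They were taken here as the gene rows whose symbol is Mrpl or Mrps, followed by digits and at most a letter a, b or c. This rule used no measured value and found 77 of the 23282 gene rows, 48 with an *Mrpl* symbol and 29 with an *Mrps* symbol. No member shared its symbol with another row. Their RNA was compared between control Th17 cells and Th17 cells in which *Fak* had been targeted with Cre, which asks how the loss of FAK in Th17 cells goes with the transcripts of this ribosome. The series holds 2 libraries, 1 per condition, so the differences could not be set against replicates, and no test was run.

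Both libraries came from mouse naïve CD4 T cells isolated from the spleen and kept for 3 days under Th17-polarizing conditions. The control library is of *Fak* fl/fl cells that carried a control retrovirus (RV), and the other is of *Fak* fl/fl cells that carried RV-Cre. Stimulation was by antibodies to CD3ε on the plate (10 μg/ml) and to CD28 in solution (5 μg/ml), and both cultures received IL-6 (50 ng/ml), TGFβ1 (1 ng/ml), TNF-alpha (1 ng/ml) and IL-1beta (2 ng/ml) with antibodies to IFNgamma and IL-4 (5 μg/ml each). GFP+ cells were sorted from both, and RNA was sequenced from the 3′ end of transcripts. The title of the control names *Fak* fl/fl cells while its genotype label reads WT, and the title was followed. Cre was supplied by the retrovirus in culture, so the floxed allele and viral transduction were shared by both conditions, and Cre was not.

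Mitochondria keep a small genome, and its messenger RNAs encode core subunits of the respiratory chain and of ATP synthase. These messages are translated inside the organelle by the mitoribosome, whose ribosomal RNAs come from mitochondrial DNA and whose proteins are all encoded in the nucleus, made in the cytosol and imported. The small subunit binds the message and decodes it, and the large subunit joins amino acids and releases the chain at a tunnel exit that faces the inner membrane. Compared with bacterial ribosomes, the mitoribosome has lost RNA and gained proteins of its own. Activated T cells build up mitochondrial mass and mitochondrial translation as they leave quiescence.

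The control library comprised 13799264 reads and the RV-Cre library 12305010 reads. After TMM scaling, levels were put on the log2(normalized count + 1) scale, where a ratio below 0 means a lower level in the RV-Cre library. *Ptk2*, the symbol of *Fak*, had 110 reads (control) and 31 reads (RV-Cre), a ratio of 0.318 with a 95% counting interval of 0.206 to 0.477. Reads near the 3′ end report the level of the transcript and not the floxed segment itself, whose place is not given in the sources used here. T cell markers were present in both libraries, with 3662 and 7475 reads of *Cd3d* and 1489 and 1342 reads of *Cd4*. The Th17 cytokine genes were lower in the RV-Cre library, with 424 and 103 reads of *Il17a* and 421 and 79 reads of *Il17f*. Several markers of other lymphoid and erythroid cells had more reads in the RV-Cre library: 3 of 3 B cell markers (summed CPM, counts scaled to library depth, of 1.73 and 7.91), 2 of 2 CD8 T cell markers (32.1 and 69.6) and 2 of 2 erythroid markers (2.38 and 14.8). The 4 myeloid markers went both ways, with 16 and 110 reads of *Csf1r*, 0 and 8 of *Adgre1*, 22 and 7 of *Lyz2* and 7 and 3 of *Itgam*. Among the defining markers, *Ncr1*, like *Adgre1*, was at 0 in the control and *Klrb1c* was at 0 in the RV-Cre library. The proliferation markers *Mki67* (1947 and 495 reads) and *Top2a* (8753 and 2707 reads) were lower in the RV-Cre library, and the ribosomal RNA row *Rn45s* took 8.50% and 14.6% of all reads. The part of these differences in the results that follow was not tested. In RNA from many cells, fewer cells of a type and less RNA per cell cannot be told apart.

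With TMM scaling most mitoribosomal protein genes were somewhat lower in the RV-Cre library, a few were much lower and none was 2-fold higher, while with *Gapdh* scaling the median turned above 0. All 77 members passed the expression minimum, set at a log2 value of 4 (15 normalized reads) in either library, and the member with fewest reads, *Mrpl21*, still had 84 and 68. The log2 ratio was below 0 for 55 members (71.4%) and above 0 for 22, against 50.4% below 0 among the 12112 genes past the minimum. The median was -0.29 over the members and -0.01 over those genes. At least 2-fold lower were 7 members, or 9.09% of them, against 12.3% of all genes past the minimum. At least 2-fold higher were 0 members, against 14.2% of all genes. The share of members 2-fold lower was thus not far from that of all genes, and the clear difference was on the higher side.

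At 1.5-fold the share of lower members was near that of all genes, and the share of higher members was below it. At a threshold of 1.5-fold, 18 members (23.4%) were lower, against 22.9% of all genes, and 1 member (1.30%) was higher, against 23.5% of all genes. The 95% counting interval of the ratio lay wholly below 1 for 48 members (62.3%), against 38.1% of all genes, and wholly above 1 for 14 members (18.2%), against 36.7% of all genes. The interval held 1 for the other 15 members. Genes with few reads reach 2-fold more readily, and intervals exclude 1 more readily in genes with many reads. The 6863 genes that reached a log2 value of 8 in either library were therefore also taken as background. Of the 75 members above this level, 6 (8.0%) were 2-fold lower and 0 were 2-fold higher, against 9.73% and 4.62% of those genes. At 1.5-fold, 17 of these 75 members were lower and 1 was higher, against 1489 and 913 of those 6863 genes. As shares, the lower members were near those genes and the higher members were below them. The interval lay wholly below 1 for 47 of the 75 members and wholly above 1 for 14, against 3204 and 2446 of the 6863 genes. As shares, more of the members than of those genes lay below 1, and fewer lay above 1. Below 0 were 70.7% of these members and 55.5% of those genes. The median of those genes was -0.09, and the members' median lay below it by 0.21. These intervals and counts cover counting error between 2 libraries and say nothing of variation between cultures.

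The shift depended on how the libraries were scaled. *Gapdh* had 956 and 634 reads, a log2 ratio of -0.42, and scaling to it takes that amount from every log2 ratio given here, so that members between -0.42 and 0 change sides. When it was used, the median over the members turned to 0.12, with 2 members 2-fold lower and 1 higher, and the median over all genes moved to 0.43. When library totals without *Rn45s* were used, the medians were -0.20 and 0.09, with 5 members 2-fold lower. The share of all genes past 2-fold was not counted under either scaling, so these member counts stand without a background. The members' median lay below that of all genes by 0.30 with *Gapdh*, by 0.29 without *Rn45s* and by 0.28 with TMM factors.

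The members lay above the middle of the expressed genes, with a median of the mean log2 level of 9.88, against 8.12 for all genes past the minimum, and their order was largely kept between the libraries. Levels ranged from 6.07 to 283.5 CPM in the control, with a median of 75.8, and from 4.08 to 324.7 CPM in the RV-Cre library, with a median of 63.8. In 3′ sequencing a transcript gives reads from its end only, so CPM needs no division by length. Spearman's rho between the levels in both libraries was 0.891 over the 77 genes, a description across genes that are not replicates. The 5 members with most reads were *Mrps6*, *Mrpl12*, *Mrpl18*, *Mrps25* and *Mrpl33*, and they held 18.2% of all member reads in the control and 19.8% in the RV-Cre library. Together the members took 0.674% of all reads in the control and 0.580% in the RV-Cre library. Summed over the members, TMM-scaled CPM was 6720 and 5822, a ratio of 0.866 (95% counting interval 0.858 to 0.875).

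**Figure D1:**
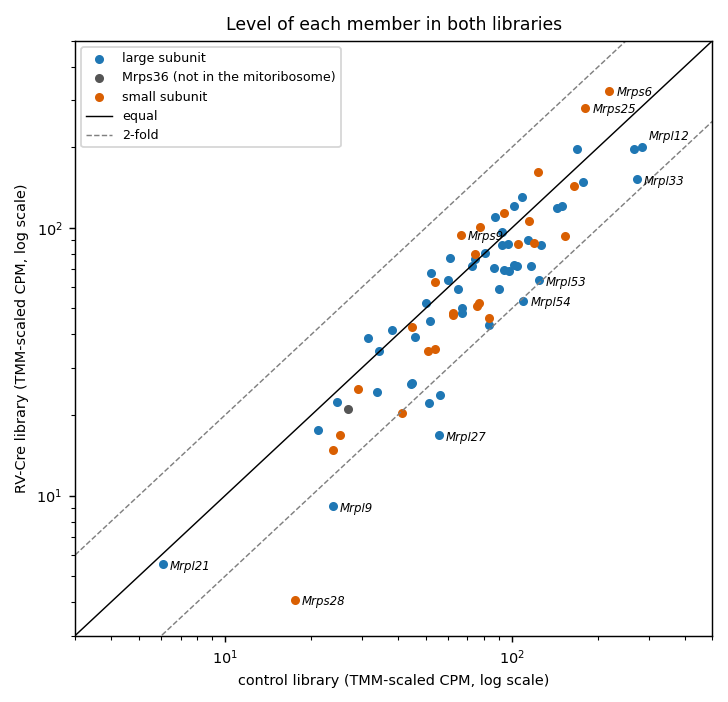
Level of each of the 77 mitoribosomal protein genes in the control library (horizontal axis) and the RV-Cre library (vertical axis), both as TMM-scaled CPM on log scales, coloured by subunit, with lines at equal levels and at 2-fold. With TMM scaling most points lie a little under the line of equal levels, 7 lie under the lower 2-fold line and none lies above the upper one.

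The members differed more from each other than counting error accounts for, and less than genes at large. The SD of their log2 ratios was 0.51, while the median counting error of a single member's log2 ratio was 0.07. The SD over the genes that reached a log2 value of 8 was 0.72. The log2 ratio lay within 0.32 of equal levels for 32 members, while 37 (48.1%) were lower by more than that and 8 (10.4%) were higher, against 34.3% and 33.4% of all genes past the minimum. Spearman's rho of the log2 ratio was 0.09 with the level of a member in the control and 0.31 with its mean log2 level in both libraries, a description over 77 genes in which the ratio and the level share their reads.

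The 7 members past 2-fold lower came from both subunits, 5 from the large (10% of its members) and 2 from the small (7.69%). Among all genes past the minimum the share was 12.3%. The lowest was *Mrps28*, a protein of the small subunit whose gene spans chr3:8802146-8923918 on the minus strand (GRCm38). It had 242 reads in the control and 50 after RV-Cre, a ratio of 0.233 (95% counting interval 0.168 to 0.317). *Mrpl27* (chr11:94653767-94660089, plus strand), whose bacterial counterpart reaches into the peptidyl transferase centre, had 768 and 206 reads, a ratio of 0.303 (0.258 to 0.353). Both were well below 2-fold lower, since their intervals ended under 0.5. *Mrpl9* (chr3:94443318-94451130, plus strand), the counterpart of a bacterial protein at the base of the L1 stalk, had 328 and 112 reads, a ratio of 0.385 (0.308 to 0.479). *Mrpl50* (chr4:49512596-49521093, minus strand), a protein that bacterial ribosomes lack, had 778 and 291 reads, a ratio of 0.422 (0.368 to 0.484). *Mrpl44* (chr1:79776018-79781445, plus strand), which has a fold related to RNase III and is needed to assemble the large subunit, had 711 and 272 reads, a ratio of 0.432 (0.374 to 0.497). For these 5 members the whole interval lay beyond 2-fold with TMM scaling. With *Gapdh* scaling only *Mrps28* (log2 ratio -1.67) and *Mrpl27* (-1.30) stayed 2-fold lower.

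The other two members past the threshold lay close to it. *Mrpl54* (chr10:81264713-81266934, minus strand), a mitochondrial addition near the L7/L12 stalk, had 1514 and 655 reads, a ratio of 0.488 (0.445 to 0.535). *Mrps31* (chr8:22411361-22429665, plus strand), a mitochondrial addition of the small subunit, had 575 and 249 reads, a ratio of 0.489 (0.419 to 0.568). Just short of 2-fold was *Mrpl53*, also of the stalk, with 1717 and 782 reads and a ratio of 0.514 (0.472 to 0.560). Counting error alone does not place these 3 genes on either side of the threshold. A further 10 members were between 1.5-fold and 2-fold lower, from *Mrpl49* (1151 and 530 reads, log2 ratio -0.94) to *Mrps14* (744 and 434 reads, -0.60), both chosen after their values were seen as the ends of that range. Among them *Mrpl33*, 1 of the 5 members with most reads, had 3772 and 1862 reads and a ratio of 0.557 (0.527 to 0.589).

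Above equal levels the differences were smaller. *Mrps25* (chr6:92169525-92184033, minus strand), a mitochondrial addition of the small subunit, was the highest, with 2490 and 3441 reads and a ratio of 1.56 (1.48 to 1.64). *Mrps6* (chr16:92058270-92112227, plus strand), the counterpart of bacterial S6, had 3029 and 3983 reads, a ratio of 1.48 (1.42 to 1.56). *Mrps9*, the counterpart of bacterial S9, had 917 and 1158 reads, a ratio of 1.43 (1.31 to 1.56). These 3 genes encode small-subunit proteins, as do *Mrps23* (1703 and 1979 reads, log2 ratio 0.39) and *Mrps24* (1074 and 1231 reads, 0.37) among the 8 highest. The large-subunit members of that group were *Mrpl28* (722 and 833 reads, 0.38), *Mrpl4* (844 and 945 reads, 0.34) and *Mrpl16* (1213 and 1346 reads, 0.32). With *Gapdh* scaling *Mrps25* was the member past 2-fold higher.

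**Figure D2:**
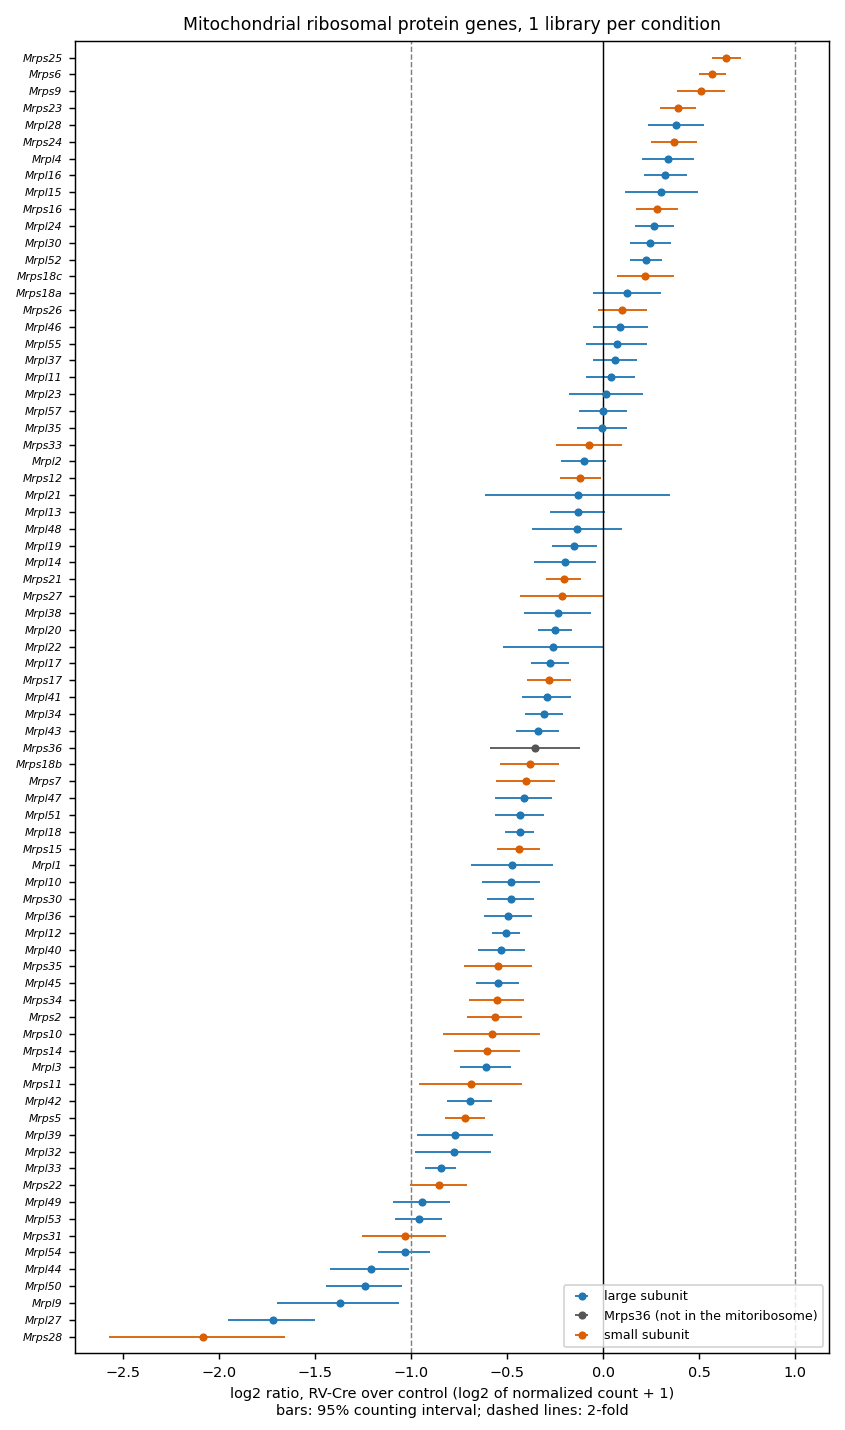
Log2 ratio of RV-Cre over control for each of the 77 mitoribosomal protein genes in order of the ratio, with bars for the 95% counting interval, coloured by subunit, and lines at 0 and at 2-fold in each direction. The genes run from *Mrps28* at -2.08 to *Mrps25* at 0.64, and the intervals are narrow beside this range.

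In structures of the mitoribosome, *Mrps30* and *Mrps18a* belong to the large subunit in spite of their symbols, and *Mrps36* encodes a component of the 2-oxoglutarate dehydrogenase complex. With these placed accordingly, the large subunit had 50 members and the small subunit 26. The median log2 ratio was -0.29 for the large and -0.33 for the small subunit. Below 0 were 36 (72%) and 18 (69.2%) members, against 71.4% of the whole family. The summed levels differed more than the medians did. Large-subunit members summed to 4501 CPM in the control and 3628 CPM after RV-Cre, a ratio of 0.806 (0.796 to 0.816), and small-subunit members to 2192 and 2173 CPM, a ratio of 0.991 (0.975 to 1.008). The small-subunit sum rested on *Mrps6* and *Mrps25*, the small-subunit members with most reads. Exons of both overlap those of another counted gene, as given further below. Without both, which were chosen after their values were seen, the sum over 24 genes was 1793 and 1567 CPM, a ratio of 0.874 (0.858 to 0.891), and the median was -0.39. The difference between the subunits was not tested, since there is 1 library per condition.

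Members were also split into proteins with a bacterial counterpart and mitochondrial additions, and both classes had medians below 0. The 46 members with a counterpart had a median of -0.25 and a summed ratio of 0.881 (0.870 to 0.892), with 3 members (6.52%) 2-fold lower. The 30 additions had a median of -0.41 and a summed ratio of 0.843 (0.829 to 0.856), with 4 members (13.3%) 2-fold lower. Among all genes past the minimum 12.3% were 2-fold lower. By subunit, the 20 additions of the large subunit had the lowest median, -0.46, and a summed ratio of 0.758 (0.743 to 0.774). The 10 additions of the small subunit, *Mrps25* among them, had a median of -0.30 and a summed ratio of 1.03 (1.00 to 1.06).

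The L7/L12 stalk recruits the translation factors, and 4 of its 5 members (80%) were lower in the RV-Cre library, against 71.4% of the whole family. *Mrpl12*, the stalk protein that has also been reported to bind the mitochondrial RNA polymerase, had 3925 and 2452 reads, a ratio of 0.705 (0.670 to 0.742). *Mrpl10*, which anchors it, had 926 and 589 reads and a log2 ratio of -0.48. *Mrpl11*, at the base of the stalk, had 1031 and 939 reads and stood apart from the others with a ratio of 1.03 (0.940 to 1.12). With *Mrpl53* and *Mrpl54*, described above, the stalk summed to 658 CPM in the control and 442 CPM after RV-Cre, a ratio of 0.671 (0.648 to 0.694).

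The central protuberance forms bridges to the small subunit, and its 5 members lay closer to the middle of the family, with a median of -0.23 and a summed ratio of 0.787 (0.759 to 0.817). *Mrpl40* (1441 and 884 reads, log2 ratio -0.53) and *Mrpl18* (3699 and 2426 reads, -0.43) were lowest in this group. *Mrpl38* (635 and 478 reads, -0.24) and *Mrpl48* (341 and 275 reads, -0.14) were nearer to equal levels, and *Mrpl46* (829 and 782 reads, 0.09) was above them. The 6 members around the tunnel exit had a median of -0.27 and a summed ratio of 0.874 (0.843 to 0.906). *Mrpl45*, which ties the large subunit to the inner membrane, was lowest there (1754 and 1063 reads, -0.55), followed by *Mrpl47* (928 and 617 reads, -0.41), *Mrpl17* (1992 and 1456 reads, -0.28) and *Mrpl22* (292 and 216 reads, -0.26). *Mrpl23* (477 and 427 reads, 0.01) was level and *Mrpl24* (1503 and 1602 reads, 0.27) was higher. No structural group had the ratios of all members on the same side of equal levels. In the stalk and the central protuberance the only members above were *Mrpl11* and *Mrpl46*. The intervals of both held 1 (0.964 to 1.18 for *Mrpl46*).

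The 3 paralogs of the S18 family did not move together. *Mrps18b*, of the small subunit, had 864 and 588 reads, a ratio of 0.768 (0.690 to 0.854). *Mrps18c*, also of the small subunit, had 745 and 769 reads, a ratio of 1.17 (1.05 to 1.29). *Mrps18a*, of the large subunit, had 527 and 509 reads, a ratio of 1.09 (0.963 to 1.23), and its interval held 1. The intervals of *Mrps18b* and *Mrps18c* did not overlap. *Mrps12*, a protein of the decoding centre, had 1593 and 1300 reads, a ratio of 0.921 (0.855 to 0.992). *Mrps30*, of the large subunit, was lower, with 1409 and 894 reads and a log2 ratio of -0.48. *Mrps36*, outside the mitoribosome, had 372 and 258 reads, a ratio of 0.783 (0.665 to 0.920).

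The mitoribosome holds further proteins whose symbols do not follow the rule, and 5 of the 6 examined (83.3%) were also below 0. This stands against 71.4% of the members and 50.4% of all genes past the minimum. *Ptcd3*, a pentatricopeptide repeat protein of the small subunit, was lowest with 1218 and 618 reads and a ratio of 0.573 (0.519 to 0.631). *Dap3*, a GTP-binding protein of the small subunit, was the exception with 1563 and 1741 reads and a ratio of 1.26 (1.17 to 1.35). Between them lay *Chchd1* (2649 and 1882 reads, log2 ratio -0.32), *Aurkaip1* (1283 and 935 reads, -0.28), *Gadd45gip1* (2851 and 2241 reads, -0.17) and *Ict1* (1092 and 947 reads, -0.03). None of the 6 was 2-fold lower or higher.

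The 2-fold counts in the lists that follow stand beside 12.3% lower and 14.2% higher among all genes past the minimum. Of 25 genes that assemble the mitoribosome or modify its RNA, 2 (8.0%) were 2-fold lower and 0 higher, with a median of -0.18. The lower genes were *Mettl15*, a methyltransferase of the small-subunit RNA, with 88 and 15 reads and a ratio of 0.192 (0.103 to 0.335), and *Mterf3*, which acts in large-subunit assembly, with 99 and 35 reads. Highest were *Mpv17l2* (520 and 710 reads, log2 ratio 0.62) and *Nsun4* (552 and 725 reads, 0.57). Of 16 mitochondrial translation factors, 1 (6.25%) was 2-fold lower and 0 higher, with a median of -0.25: the elongation factor *Gfm1* had 780 and 316 reads, a ratio of 0.457 (0.400 to 0.522). The release factor *Mtrf1* had 21 and 9 reads, too few to tell its ratio from 1. The initiation factor *Mtif3* (875 and 1012 reads, 0.38) and *Guf1* (292 and 322 reads, 0.31) were the highest of this list.

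The 17 mitochondrial tRNA synthetases had a median of -0.04, with 0 genes past 2-fold, and ran from *Aars2* (205 and 110 reads, log2 ratio -0.72) and *Nars2* (112 and 61 reads, -0.69) to *Tars2* (405 and 561 reads, 0.64) and *Hars2* (289 and 434 reads, 0.76). Of 11 genes past the minimum that transcribe or replicate mitochondrial DNA, 4 (36.4%) were 2-fold lower and 0 higher, with a median of -0.40. *Ssbp1*, the single-strand binding protein, had 699 and 222 reads, a ratio of 0.358 (0.307 to 0.417). *Tefm*, the transcription elongation factor, had 81 and 30 reads (log2 ratio -1.23). *Tfam*, which packages mitochondrial DNA and starts its transcription, had 1225 and 529 reads (-1.04), and the nuclease gene *Mgme1* had 316 and 139 reads (-1.01). The RNA polymerase gene *Polrmt* was on the other side with 182 and 301 reads (0.90), as was the helicase gene *Peo1* (165 and 164 reads, 0.16). *Tfam* and *Mgme1* were chosen after their values were seen, apart from the extremes of the list. The transcripts of mitochondrial DNA itself were not analysed here.

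With TMM scaling the other large ribosomal and mitochondrial gene sets lay nearer to equal levels than the members did. *Gapdh* scaling takes -0.42 from every log2 ratio and puts the members' median at 0.12. Both lists would then lie farther above equal levels than the members. The 76 cytosolic ribosomal protein genes had a median of -0.12, with 46 genes (60.5%) below 0 and 3 genes (3.95%) 2-fold lower. Their summed ratio was 0.975 (0.973 to 0.978). They ran from *Rps2* (11597 and 3918 reads, log2 ratio -1.39) and *Rpl30* (3381 and 1349 reads, -1.15) to *Rps27* (0.44) and *Rps20* (63146 and 82395 reads, 0.56). The 77 nuclear-encoded respiratory complex subunits had a median of 0.03, with 37 genes (48.1%) below 0 and 4 genes (5.19%) 2-fold lower. Their summed ratio was 0.958 (0.952 to 0.964). They ran from *Sdhd* (287 and 88 reads, -1.52) and *Cox7c* (2430 and 881 reads, -1.29) to *Ndufa11* (0.60) and *Atp5sl* (0.71). No gene of either list was 2-fold higher. The SD of log2 ratios was 0.37 for the cytosolic list and 0.45 for the respiratory list, beside 0.51 for the mitoribosomal genes. The difference between the lists was not tested.

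All 77 members were found in the GENCODE M21 annotation of GRCm38, on 17 chromosomes. Exons of another counted gene overlap those of 23 members, and in 5 of them the overlap covers the annotated 3′ end, where these reads are expected. *Mrps25* is in that group, overlapping *Nr2c2* on the opposite strand (1673 and 2733 reads, log2 ratio 0.88), as is *Mrpl49* with *Syvn1* (593 and 187 reads, -1.49). Whether strand was used in the counting is not given in the sources used here, so reads of such pairs cannot be told apart. In 3 members, *Mrps6* (with *Slc5a3*, 840 and 721 reads, log2 ratio -0.05), *Mrps24* and *Mrps34*, an overlapping gene lies on the same strand. There, strand would not separate reads from the shared stretch. Of the 7 members past 2-fold lower, *Mrpl27*, *Mrpl9* and *Mrpl44* overlap an opposite-strand gene away from their 3′ ends, and the other 4 overlap no exon of a counted gene.

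Many mitoribosomal protein genes start close to another gene on the opposite strand. The genes of such a pair read away from a shared stretch of DNA, or overlap at their annotated starts. A protein-coding start on the opposite strand lay within 1000 bases for 33 members, and in 30 distinct pairs both genes passed the minimum. These pairs include some whose annotated genes overlap at their starts. Members and partners did not move as pairs in these libraries. The log2 ratios had the same sign in 14 pairs and opposite signs in 16, and Pearson's r over the 30 pairs was -0.05, a description across genes of the same 2 libraries. The median absolute difference within a pair was 0.66 on the log2 scale, and over the 839 such pairs of the whole annotation it was 0.69 (Pearson's r 0.11). Past 2-fold lower were the partners *Ska3*, *Ncapd2* and *Apba3*, and past 2-fold higher were *Eme2*, *Cyb5rl* and *Pnpla7*. These 6 partners, and the other pairs named here, were chosen after their values were seen.

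Stretches between the starts are shown for the pairs whose ratios were nearest, as they are DNA from which both genes read away. The stretch of *Mrps12* covers 146 bases of a gap of 172 between the annotated starts, and the others run the whole gap. They are in GRCm38.p6 from RefSeq, printed 5′ to 3′ on the strand of the mitoribosomal gene, and capitals mark the letters searched as motifs (the ETS letters CCGGAAG, the NRF1 letters GCGCATG, the YY1 letters ATGGCGG and the CCAAT box, on either strand). *Mrps12* starts beside *Sars2*, the mitochondrial seryl-tRNA synthetase, and their log2 ratios were -0.12 and -0.04. *Mrpl32*, whose product is trimmed by a mitochondrial protease before it joins the large subunit, starts beside the proteasome subunit gene *Psma2*, with log2 ratios of -0.78 and -0.67. *Mrps27* starts beside *Ptcd2*, with log2 ratios of -0.21 and -0.36.
Mrps12/Sars2, chr7:28741822-28741967, minus strand: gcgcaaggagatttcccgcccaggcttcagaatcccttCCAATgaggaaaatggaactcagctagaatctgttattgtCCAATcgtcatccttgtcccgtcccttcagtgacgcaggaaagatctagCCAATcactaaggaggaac
Mrpl32/Psma2, chr13:14613166-14613239, minus strand: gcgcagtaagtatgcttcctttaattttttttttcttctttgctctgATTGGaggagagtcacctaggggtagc
Mrps27/Ptcd2, chr13:99344706-99344785, plus strand: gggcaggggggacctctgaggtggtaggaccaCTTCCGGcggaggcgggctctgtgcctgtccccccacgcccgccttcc

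The pairs that lay farthest apart are shown next, again on the strand of the mitoribosomal gene with the same motif letters in capitals. *Mrps5* (2117 and 1139 reads, log2 ratio -0.72) starts beside the zinc finger gene *Zfp661* (96 and 164 reads, 0.94). *Mrpl50* (-1.24) starts beside the zinc finger gene *Zfp189* (48 and 67 reads, 0.64). *Mrpl57* (1115 and 989 reads, 0.00) starts 49 bases from *Ska3*, a spindle and kinetochore gene (239 and 23 reads, -3.15). These 6 stretches were drawn from the 13 pairs whose starts are separated by DNA that the RefSeq promoter table covers.
Mrps5/Zfp661, chr2:127587095-127587221, plus strand: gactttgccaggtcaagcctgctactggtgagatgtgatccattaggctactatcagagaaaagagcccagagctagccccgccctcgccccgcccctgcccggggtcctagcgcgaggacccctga
Mrpl50/Zfp189, chr4:49521094-49521175, minus strand: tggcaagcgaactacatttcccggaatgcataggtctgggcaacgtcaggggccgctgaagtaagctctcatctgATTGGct
Mrpl57/Ska3, chr14:57826186-57826233, plus strand: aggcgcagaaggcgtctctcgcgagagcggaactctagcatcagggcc

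The pair of *Mrps11* and *Mrpl46* is the only one in which both genes are members. *Mrps11*, of the small subunit, had 329 and 181 reads, a log2 ratio of -0.68. *Mrpl46*, of the large subunit, had 829 and 782 reads, a log2 ratio of 0.09. *Mrpl49* starts 59 bases from *Fau*, which encodes a cytosolic ribosomal protein, and the pair had log2 ratios of -0.94 and 0.26. *Mrpl54* starts 26 bases from *Apba3*, and both were 2-fold lower, at -1.03 and -1.24.

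Promoters of mitoribosomal genes are known for sites of ETS factors such as GABP, of NRF1 and of YY1. RefSeq windows of 300 bases, from 250 before to 50 after a start, were found for 68 of the 77 members, giving 74 windows. The ETS letters CCGGAAG were in 25 windows (33.8%), against 8.86% of 32851 promoter windows of all genes and 17.9% of 12218 windows of genes past the minimum. The YY1 letters ATGGCGG were in 13 windows (17.6%), against 4.05% and 8.06%, and the NRF1 letters GCGCATG in 8 windows (10.8%), against 3.91% and 6.92%. Other letters were close to the share among genes past the minimum: GGGCGGG was in 43.2% of windows (45.3% of those), CCAAT in 40.5% (38.2%), CACGTG in 9.46% (9.99%) and TATAAA in 6.76% (7.43%). Each motif was searched on both strands, and a match of letters is not a bound site. The median GC content of the windows was 58.5%, against 60.3% for genes past the minimum.

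**Figure D3:**
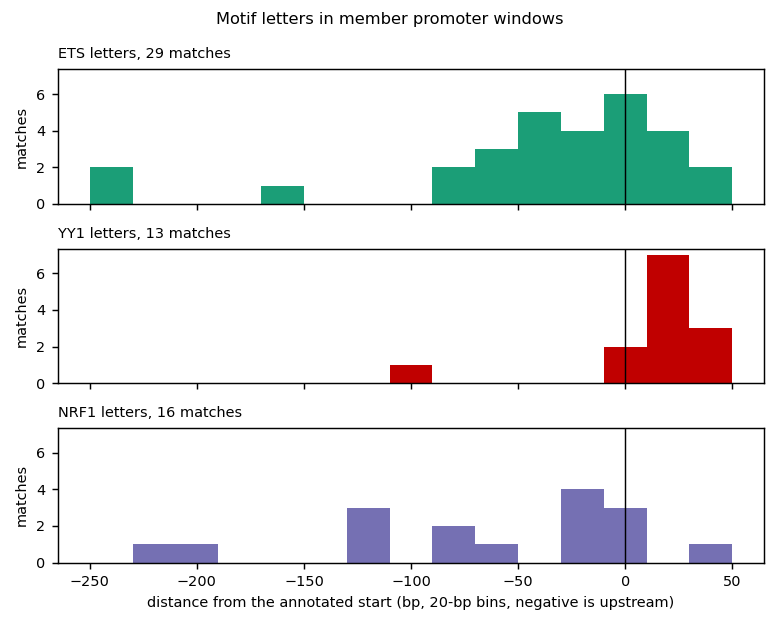
Number of matches of the ETS, NRF1 and YY1 letters in the promoter windows of the mitoribosomal genes, by distance in bases from the annotated start, in bins of 20 bases. Of 29 ETS matches 21 lie within 50 bases of the start, and of 13 YY1 matches 12 lie after it.

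The YY1 letters contain a start codon, and this is where most of them lay. Of 11 matches as written on the gene's strand, 10 began at an annotated start codon, the exception being *Mrpl37*. All 3 of the members past 2-fold lower that hold these letters have them there. How many of these letters lie at start codons in genes at large was not counted. This placement is thus not shown to be particular to the family. Each of the 3 sites is printed for the gene's own strand in GRCm38.p6, with the letters in capitals and 10 bases on either side.
Mrpl27, chr11:94653792-94653818, plus strand: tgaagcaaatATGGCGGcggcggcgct
Mrpl9, chr3:94443341-94443367, plus strand: ctccgctgtcATGGCGGcctctgtggc
Mrpl50, chr4:49521037-49521063, minus strand: cttgtcgagaATGGCGGcgctgatcgt

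Members with these letters were compared with members without them. The median log2 ratio was -0.21 for the 25 genes with the ETS letters and -0.41 for the 43 without, -0.56 for the 13 with the YY1 letters and -0.28 for the 55 without, and -0.62 for the 8 with the NRF1 letters and -0.26 for the 60 without. These groups overlap, as 36 of 68 genes hold at least 1 of the 3 motifs, and the differences were not tested. Of the factors tied to such promoters, *Myc* was lowest with 1678 and 315 reads, a ratio of 0.212 (0.187 to 0.239), and *Gabpa*, the DNA-binding subunit of GABP, had 515 and 243 reads, a ratio of 0.532 (0.455 to 0.621). The coactivator gene *Pprc1* (log2 ratio -0.53) and the GABP subunit gene *Gabpb1* (-0.52) were also below 0. *Yy1* (1496 and 1403 reads, 0.08), *Ppargc1b* (0.14), *Nrf1* (517 and 540 reads, 0.24) and *Esrra* (2315 and 2706 reads, 0.40) were above 0, and *Ppargc1a* (13 and 2 reads) did not pass the minimum.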

How the data were processed

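GFP+ cells sorted by the authors gave 1 control and 1 RV-Cre library, made with a QuantSeq 3′ kit. The authors deposited a table of raw counts for each library, that is, unnormalized reads per gene symbol. Their processing notes name bcl2fastq 2.20.0.422, Bowtie2, bedtools and the build mm10, and the counting rule is not given in the sources used here. The libraries held 13799264 and 12305010 reads. Counts were scaled with TMM factors (edgeR 4.0.16, R 4.3.3) and compared as log2(normalized count + 1), with a minimum of 4 on that scale in either library and a threshold of 2-fold. Ratios carry exact Clopper-Pearson 95% intervals (scipy 1.17.1) on the split of reads. The counts have no molecular identifiers, so intervals cover counting error only. With 1 library per condition no test was run. The procedure was tested on simulated counts.

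The members, gene lists and motifs were chosen with earlier results of these data known. A marker gene examined as a check is not reported here. The genes named are *Ptk2*, members past 2-fold, the 8 highest and 8 lowest members, the 5 with most reads, the structural groups, the S18 paralogs, *Mrps12*, *Mrps30* and *Mrps36*, the extremes of each list, and all other mitoribosomal proteins and promoter factors. Positions came from GENCODE M21, and promoter sequences from RefSeq GRCm38.p6. Alternatives were other scalings, minimums, thresholds, pseudocounts and leaving out overlapping or abundant members.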

Additional observations from a re-analysis of the deposited data

How the results depend on the processing

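Alternatives were tried for the scaling (library totals, DESeq2 1.42.0 size factors, median centring), the expression minimum and the pseudocount (0.1 and 10). With these, the number of members 2-fold lower stayed within 1.5 times of the 7 reported. The median log2 ratio stayed between -0.28 and -0.31. Scaling to *Gapdh* left 2 members 2-fold lower and 1 higher, turned the median to 0.12 and turned the summed ratio from 0.866 to 1.16. Library totals without *Rn45s* gave 5 members 2-fold lower, a median of -0.20 and a summed ratio of 0.922. The share of all genes past 2-fold was not counted under either of these scalings. The sum without the 3 members with most reads gave 0.857. Over the 36 members whose span overlaps no other annotated gene, 3 were 2-fold lower, as fewer members were counted. Lowering the threshold gave 18 lower and 1 higher at 1.5-fold, and 37 lower and 8 higher at a log2 ratio of 0.32, and counting members whose interval excludes 1 gave 48 lower and 14 higher. Of the values of single members under these alternatives, 456 lay within the counting interval of the value reported and 83 lay outside it, 75 of them with *Gapdh* and 8 without *Rn45s*. The small-subunit ratio of 0.991 became 0.874 without *Mrps6* and *Mrps25*, an alternative chosen after seeing the data. No paired analysis was possible because the series holds a single library of each kind. Leaving out a replicate was not possible for the same reason, so the spread between cultures is unknown.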
